A study of Mus musculus with 88 samples.

Results

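The medial prefrontal cortex (mPFC) of resilient C57BL/6Crl (B6) mice was compared with that of control B6 mice, 6 mice in each group, across 18946 genes. These 12 libraries were chosen by strain, brain region and phenotype in the sample labels, out of 32 mPFC libraries and 88 libraries in the series. All were male mice aged 8 weeks. Resilient mice had gone through chronic social defeat stress (CSDS), in which a mouse is put for a short daily bout into the home cage of an aggressive CD1 male and is then kept beside it behind a perforated divider. They were called resilient because their social interaction ratio afterwards did not fall more than 1 SD below the mean of control mice of their strain. Susceptible B6 mice (6), used here only for values set beside those of resilient mice, had the same defeats and fell below that limit. Control mice lived in pairs on either side of a divider and met no aggressor. All mice were single-housed after the last session and tested for social avoidance, and the mPFC was dissected about a week after the last defeat. Each library is 1 mouse and came from bulk tissue depleted of ribosomal RNA, so fewer cells of a type and less RNA per cell cannot be told apart. The resilient class is a cut on a continuous behavioral score, and no mouse was sampled before stress.

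The mPFC is the frontal cortical area that exerts top-down control over the amygdala and the brainstem centers of the stress response. Repeated defeat is known to alter neuronal firing and immediate early gene expression in this region. Resilient mice live through the same defeats without social avoidance, and resilience is commonly described as an active process with gene expression changes of its own. The comparison asks which mPFC transcripts differ between mice that were defeated but did not come to avoid others and mice that were never defeated.

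The table holds log2 CPM, the log2 of read counts scaled to the size of each library, so a difference of 1 between group means is a 2-fold change. No total read count can be read from these values. The paper describes extended data that list the analyzed reads, but the depth of each library was not used here. Over the 66 pairs of libraries the median absolute difference of a gene ran from 0.0923 to 0.193, and no library was a copy of another. Markers of the labelled tissue were high in every mouse. Snap25, a synaptic vesicle fusion protein of neurons, lay between 10.87 and 11.38 log2 CPM, and Slc17a7, the vesicular glutamate transporter of cortical excitatory neurons, between 7.49 and 7.89. Markers of 2 neighboring regions were also measured, and those of the olfactory bulb differed widely between mice, as described with their values further on. The 12 libraries came from 5 library preparation sets, 4 of which held both groups, and from mice whose identity codes began with C1, C2, C5 or C7. Control mice carried the codes C1 (2 mice), C2 (3) and C7 (1), and resilient mice C1 (1), C2 (3) and C5 (2).

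Resilient and control mice differed in no gene at an adjusted p under 0.05 by limma with Benjamini-Hochberg adjustment over 18946 genes (0 of 18946). The smallest adjusted p was 0.321, and the next was 0.999. At an unadjusted p under 0.05 there were 731 genes (3.86% of those tested), of which 399 (2.11%) were higher and 332 (1.75%) were lower in resilient mice. The values of all 6 resilient mice lay above all 6 control mice for 30 genes (0.158%) and below them for 15 genes (0.0792%), together 45 (0.238%). These percentages are the background for the counts within gene lists further on. For susceptible against control mice the same fit gave 420 genes (2.22%) at an adjusted p under 0.05. Of these mice, 5 of the 6 susceptible and 1 of the 6 controls carried the identity code C7. Code and phenotype therefore cannot be told apart there. The median absolute log2 fold change was 0.0540 in resilient and 0.0884 in susceptible mice, both against the same 6 controls.

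The size of change excluded in the comparison of the 12 mice was read from the 95% interval of each gene's log2 fold change. The spread behind these intervals was estimated from all 32 mPFC libraries. The median SE was 0.0860 and the median margin of the interval, from the estimate to either end, 0.176. For 18344 genes (96.8%) the whole interval lay within a 2-fold change in either direction, for 16580 (87.5%) within 1.5-fold and for 12214 (64.5%) within 0.32 on the log2 scale, a rise of 25% or the matching fall, called "within 25%" from here on. Each gene has its own 95% interval, and 1 in 20 such intervals misses the true value by construction. With intervals widened to hold for all genes at once (Bonferroni), 14552 genes (76.8%) lay within 2-fold, 9810 (51.8%) within 1.5-fold and 3174 (16.8%) within 25%.

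The precision followed the expression level. Among the 5352 genes with a mean of 4 to 6 log2 CPM, the median margin was 0.125 and 99.4% of the intervals lay within 2-fold. Among the 3180 genes from 6 to 8 log2 CPM it was 0.105, and 95.1% lay within 25%. Among the 1069 genes under 0 log2 CPM it was 0.487, and 78.2% lay within 2-fold while 0.655% lay within 25%. The intervals of 602 genes reached 2-fold, so for these a change of that size was not excluded. Of these, 464 had a mean under 2 log2 CPM, 41 lay at 4 log2 CPM or more, 71 were small nucleolar RNAs (snoRNAs) and 172 other small RNAs, and 253 coded for proteins.

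**Figure D1:**
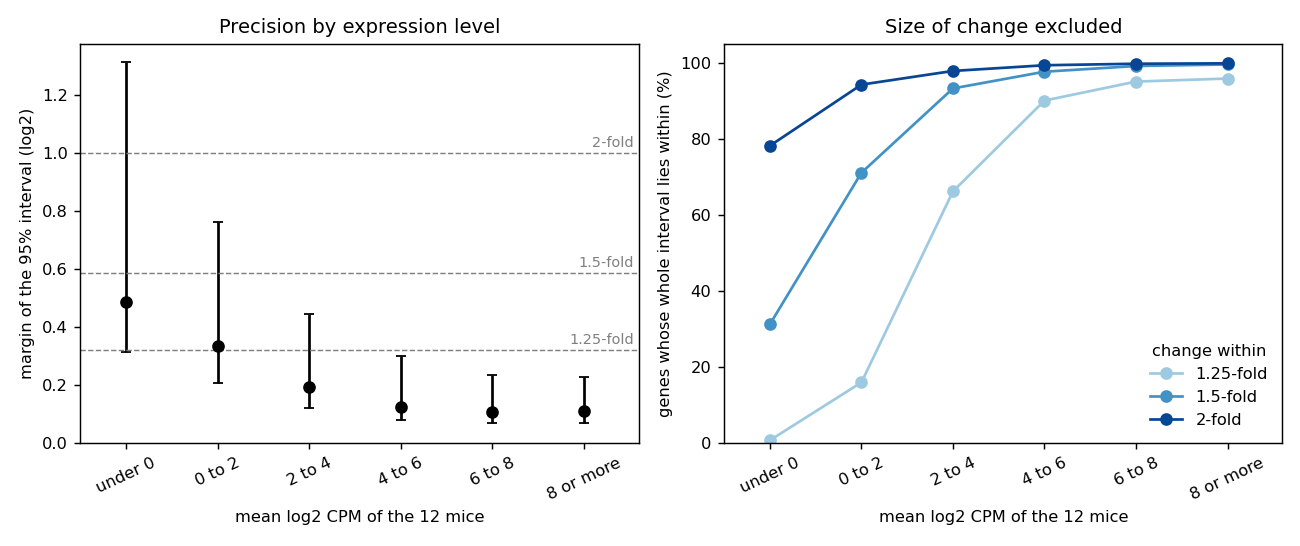
The left panel plots the margin of the 95% interval of the log2 fold change (resilient against control) by mean log2 CPM of the 12 mice, with points at the median and bars from the 5th to the 95th percentile of genes. The right panel plots the percentage of genes whose whole interval lies within 25%, 1.5-fold or 2-fold. Between 4 and 6 log2 CPM, 90.1% of genes lie within 25%, against 0.655% under 0 log2 CPM.

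The gene with the smallest p was 2900064F13Rik (chr5:81826816-81827823, plus strand, GRCm38), a transcript that GENCODE lists among those still awaiting experimental evidence. It measured 1.86, 1.90 and 2.08 log2 CPM (lowest, median and highest) in control mice and 2.24, 2.44 and 2.61 in resilient mice. Every resilient mouse lay above every control mouse, and the log2 fold change was 0.49 (95% interval 0.30 to 0.69, limma adjusted p = 0.321). It starts 1683 bases past the annotated end of Adgrl3, the latrophilin 3 gene of synaptic adhesion, on the same strand. Adgrl3 itself differed by 0.04 (−0.06 to 0.14), so the transcript downstream was higher while its neighbor's interval excludes a change over 1.10-fold. In susceptible mice 2900064F13Rik was higher by 0.43 against the same controls. How reads were counted by strand is not given in the sources used here, so reads of this transcript and of a longer Adgrl3 end cannot be told apart.

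For the other genes named in this text the limma adjusted p in resilient against control mice was 0.999. Gm9884, another transcript of that class on chromosome 1, measured 0.46, 0.66 and 0.72 log2 CPM in control and 0.63, 1.12 and 1.29 in resilient mice, a difference of 0.42 (0.22 to 0.63) with overlapping groups. Gm5873, a processed pseudogene, was higher by 0.54 (0.26 to 0.82), also with overlap. Gm6611, a processed pseudogene on chromosome 16, measured 2.24, 2.44 and 2.59 log2 CPM in control and 1.79, 2.08 and 2.16 in resilient mice. All resilient mice lay below all controls, and the log2 fold change was −0.40 (−0.59 to −0.20). Reads of processed pseudogenes can be shared with their parent genes, so both values are uncertain.

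Mad2l2, a subunit of the translesion DNA polymerase zeta and of the shieldin complex of DNA repair, measured 1.62, 1.90 and 1.98 log2 CPM in control and 1.21, 1.41 and 1.6 in resilient mice. The groups did not overlap, and the log2 fold change was −0.44 (−0.67 to −0.22).

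**Figure D2:**
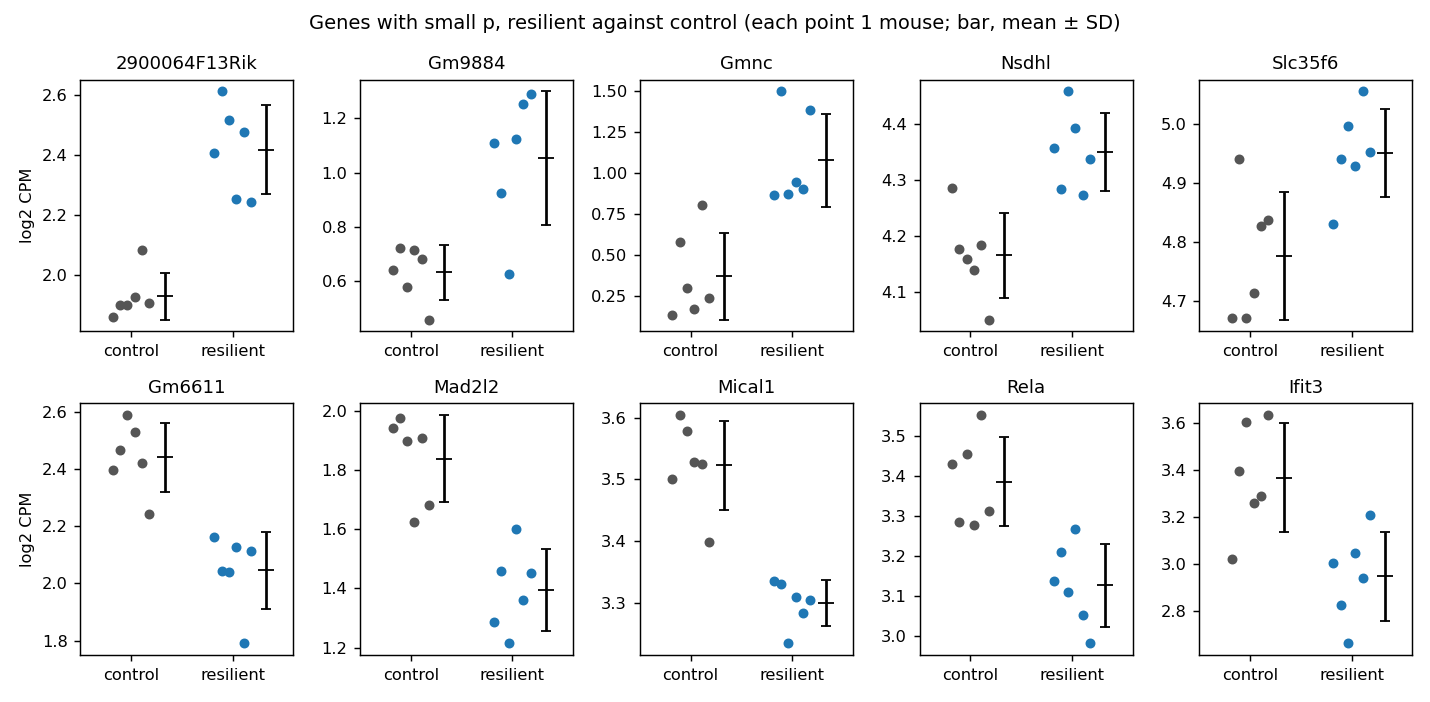
Values of 10 genes with small p in control and resilient mice (y axis, log2 CPM, with a range of its own in each panel), 1 point per mouse, with the mean and SD as a bar beside the points. In 2900064F13Rik, Gmnc, Gm6611, Mad2l2, Mical1 and Rela the 6 resilient points lie all on 1 side of the 6 control points, and none of the 10 genes passed the adjusted test.

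Among genes with a mean of at least 3 log2 CPM the leading differences were small. Nsdhl, a sterol dehydrogenase of cholesterol synthesis, measured 4.05, 4.17 and 4.29 log2 CPM in control and 4.27, 4.35 and 4.46 in resilient mice. The groups overlapped slightly, and it was higher by 0.19 (0.09 to 0.28). Slc35f6, a member of a solute carrier family, was higher by 0.17 (0.08 to 0.27), Pask, a PAS domain kinase that responds to nutrients, by 0.23 (0.09 to 0.37), and the less studied transcripts Gm11652 and Gm19445 by 0.20 and 0.30. Mical1, an oxidoreductase that takes actin filaments apart, measured 3.40, 3.53 and 3.60 log2 CPM in control and 3.23, 3.31 and 3.34 in resilient mice, with no overlap and a difference of −0.22 (−0.35 to −0.09). Rela, the p65 subunit of the inflammatory transcription factor NF-κB, measured 3.28, 3.37 and 3.55 log2 CPM in control and 2.98, 3.12 and 3.27 in resilient mice, again without overlap, and was lower by 0.26 on the log2 scale (−0.42 to −0.10). Gm44152 was lower by 0.20.

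Low-expressed protein-coding genes with the highest and lowest products of −log10(p) and log2 fold change came next. Gmnc, the coiled-coil regulator that commits cells to multiciliated fates, measured 0.13, 0.27 and 0.80 log2 CPM in control and 0.87, 0.92 and 1.5 in resilient mice. The groups did not overlap, and the difference was 0.71 (0.29 to 1.12). Rras, a small GTPase of the Ras family, was higher by 0.51 (0.18 to 0.84) without overlap, Nsl1, a kinetochore protein, by 0.53 and Kifc5b, a kinesin, by 0.55, the last 2 with overlap. The open reading frame 2010109A12Rik differed by 0.94 (0.15 to 1.73), with control values from −3.80 to −0.12 log2 CPM and resilient values from −0.58 to 0.13. Without control mouse 6, which holds the lowest value, the difference was 0.41. Cdc42ep5, an effector of the GTPase Cdc42, was lower by 0.67 (−1.07 to −0.27). Ccl28, a chemokine of mucosal epithelia, measured 1.65, 2.76 and 2.91 log2 CPM in control and 0.55, 1.90 and 2.69 in resilient mice, a difference of −0.90 (−1.54 to −0.25) with overlap. It also differed by −1.65 between susceptible and control mice, where it passed the limma test (adjusted p = 0.011).

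Kcng3, a modulatory voltage-gated potassium channel subunit that forms no channel alone, measured 3.62, 3.78 and 3.92 log2 CPM in control and 3.93, 4.11 and 4.26 in resilient mice, a difference of 0.32 (0.08 to 0.57) without overlap. Aldh1a1, a retinaldehyde dehydrogenase, and Ypel5, a small zinc-binding protein, also showed no overlap. Aldh1a1 was lower by 0.27 (−0.46 to −0.09) and Ypel5, at about 7 log2 CPM, by 0.12 (−0.24 to −0.01). Aldh1a1 and Ypel5 were chosen after their values were seen. No overlap was found for 0.238% of all genes. Some of 18946 genes would show none by chance alone, and their number was not estimated. With no adjusted call, these separations are descriptions of 12 mice.

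Olfactory bulb markers were among the genes with the largest differences. Of 18946 genes, 49 had a log2 fold change beyond 1 in either direction, 11 above 1 and 38 below −1, and 8 of the 38 were the bulb markers. With 1 mouse left out, the number above 1 ran from 4 (without resilient mouse 2) to 37 (without control mouse 6), and the number below −1 from 21 (without resilient mouse 2) to 67 (without control mouse 2). The 8 markers of the olfactory bulb, a region just rostral to the mPFC, all had lower means in resilient mice, with a median log2 fold change of −1.67, and 1 of the 8 passed an unadjusted p under 0.05 (1.75% of all genes did so in that direction). S100a5, a calcium-binding protein of olfactory sensory neurons, measured −4.57, 1.44 and 2.42 log2 CPM in control and −5.87, −4.55 and 0.87 in resilient mice, a difference of −3.69 (−7.33 to −0.04). Stoml3, a stomatin-like protein of sensory neurons, differed by −2.45 (−4.95 to 0.04), Tbx21, a transcription factor of mitral and tufted cells in the bulb, by −1.87 (−4.03 to 0.29), and Omp, the olfactory marker protein, by −1.48 (−3.04 to 0.09). No interval of the 8 markers lay within 2-fold.

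The marker mean of each mouse fell into high and low values in both groups. In control mice 1 to 6 it was 2.89, −1.12, 2.44, 2.137, 2.51 and 3.20 log2 CPM. In resilient mice 1 to 6 it was −1.03, −1.29, −0.53, 2.142, −0.37 and 1.83 log2 CPM. A mean above 1 log2 CPM was thus found in 5 of 6 control and 2 of 6 resilient mice, and the ranges overlapped. In susceptible mice the mean ran from −1.75 to 4.28 log2 CPM. Bulb markers were thus high in some mice and low in others of both groups, and more often high in controls.

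Several genes outside the list had the same high and low mice. Trdn, triadin of calcium release, measured −0.68, 2.37 and 3.16 log2 CPM in control and −2.32, 0.01 and 1.81 in resilient mice, a difference of −1.87 (−3.85 to 0.11). Gdpd4, a phosphodiesterase, differed by −1.5, Nppa, the atrial natriuretic peptide precursor, by −1.67, Slc6a3, the dopamine transporter, by −1.53, Sp7, a zinc finger transcription factor, by −1.36 and Calb2, the interneuron protein calretinin, by −0.92. When the bulb marker mean was added to the fit as a covariate, an alternative added after the data had been seen, these became −0.19 for Trdn, −0.45 for Gdpd4, −0.16 for Nppa, −0.22 for Slc6a3, −0.08 for Sp7 and 0.14 for Calb2. The number of genes with a log2 fold change below −1 went from 38 to 1 and that above 1 from 11 to 31. The 8 markers that make up the covariate are themselves among the 38. The genes just named were grouped here because they followed the same mice. Smaller differences for all of these were thus built into this fit, and their cause was not tested. No gene passed the adjusted test in that fit either.

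**Figure D3:**
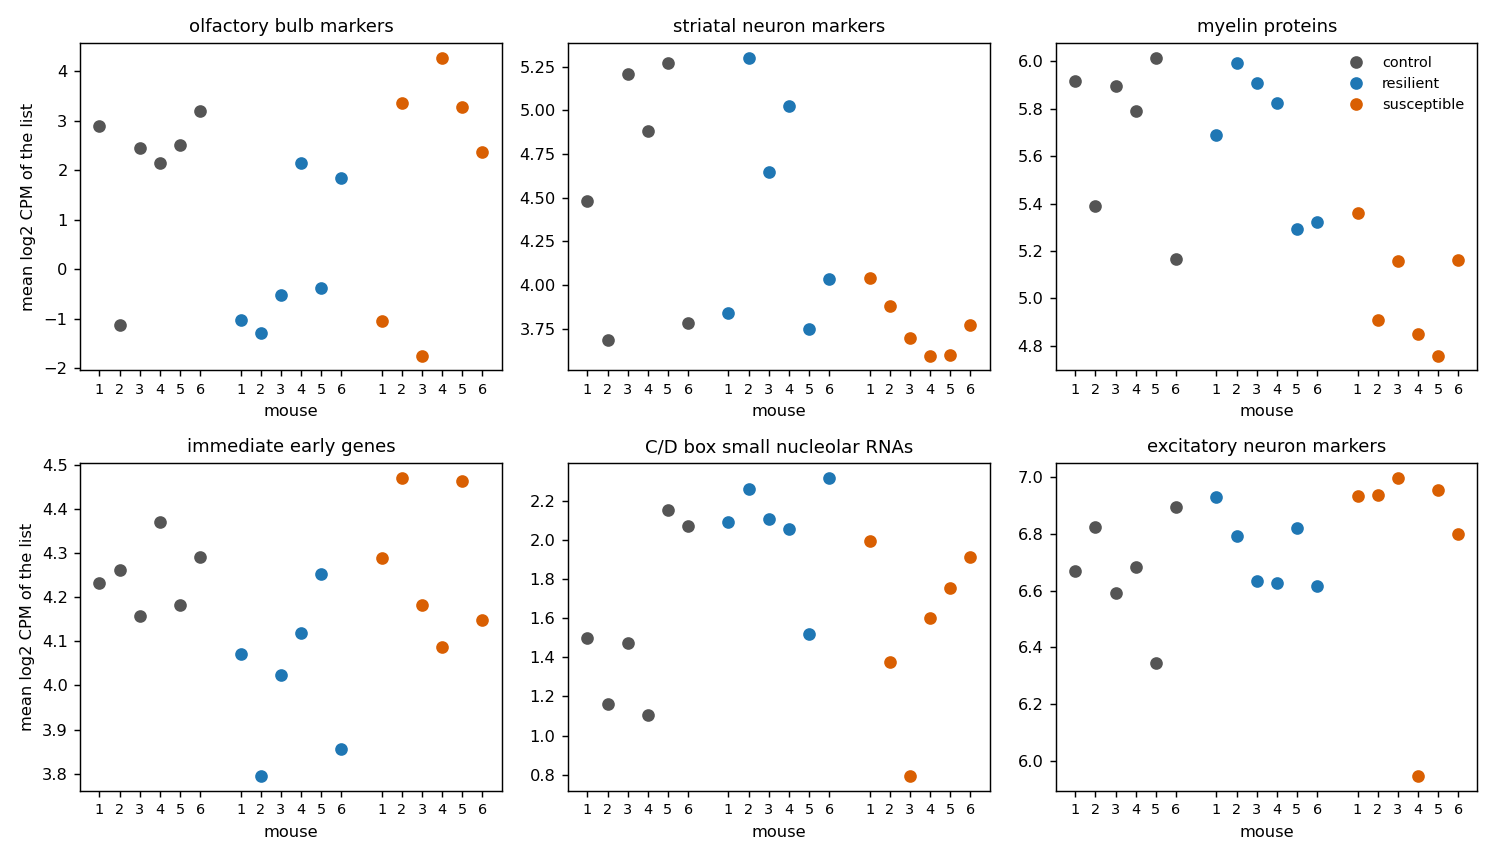
Mean log2 CPM of 6 sets of genes in each control, resilient and susceptible B6 mouse (x axis, mouse number in the group, y axis, log2 CPM with its own range in each panel). Olfactory bulb markers lie at 1.83 log2 CPM or more in 5 control and 2 resilient mice and below −0.3 in the other mice of these 2 groups, while myelin proteins and excitatory neuron markers of resilient mice overlap with those of controls.

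Among the 11 genes above a log2 fold change of 1 were 4 predicted genes that resemble each other in sequence, and a similar one lay just under 1. Gm10801 (chromosome 2) measured 2.86, 3.07 and 3.50 log2 CPM in control and 3.15, 4.23 and 5.18 in resilient mice, a difference of 1.04 (0.16 to 1.93). It was 4.63 or more in resilient mice 1, 2 and 3 and between 3.15 and 3.82 in the other resilient mice, so the groups overlapped. Gm10718, Gm10722 and Gm11168, neighbors near the centromeric end of chromosome 9, differed by 1.06, 1.07 and 1.07, and Gm21738 on chromosome 14 by 0.97. In susceptible mice the 5 differed from the same controls by 0.76 to 1.19. Between 19.7% and 67.8% of the 31-base words in each of the 5 transcripts also occur in another of them. Reads of those stretches could match more than 1 of the 5, so the values cannot be taken as independent. How such reads were assigned, and what the reads of the 5 genes come from, was not tested.

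Immediate early genes are switched on within minutes of synaptic activity and are used as markers of recently active neurons. Most of them had lower means in resilient mice, but few passed even the unadjusted test. Of 31 measured genes, 26 had a log2 fold change below 0, the median was −0.17, 4 were lower at an unadjusted p under 0.05 (1.75% of all genes) and none was higher. The median for the susceptible mice against the same controls was 0.04. The mean over the list was 4.16, 4.25 and 4.37 log2 CPM (lowest, median and highest) in control and 3.80, 4.05 and 4.25 in resilient mice, so the groups overlapped. No member passed the adjusted test.

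The promoters of the 4 lower members are shown because neuronal activity reaches such genes through CREB, which binds the cAMP response element (CRE). Each is a RefSeq window of 300 bases around the transcription start in GRCm38.p6, printed in the direction of transcription. They lie at chr12:85473640-85473939 (plus strand, Fos), chr1:191183284-191183583 (minus, Atf3), chr1:134079106-134079405 (minus, Btg2) and chr17:26508423-26508722 (minus, Dusp1). Capitals mark the full element TGACGTCA or its core TGACG on either strand.
Fos: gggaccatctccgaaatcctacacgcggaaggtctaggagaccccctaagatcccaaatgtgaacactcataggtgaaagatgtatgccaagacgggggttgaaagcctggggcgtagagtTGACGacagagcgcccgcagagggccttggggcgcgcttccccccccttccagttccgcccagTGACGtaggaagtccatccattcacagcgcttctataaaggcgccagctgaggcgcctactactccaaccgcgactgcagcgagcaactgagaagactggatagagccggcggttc
Atf3: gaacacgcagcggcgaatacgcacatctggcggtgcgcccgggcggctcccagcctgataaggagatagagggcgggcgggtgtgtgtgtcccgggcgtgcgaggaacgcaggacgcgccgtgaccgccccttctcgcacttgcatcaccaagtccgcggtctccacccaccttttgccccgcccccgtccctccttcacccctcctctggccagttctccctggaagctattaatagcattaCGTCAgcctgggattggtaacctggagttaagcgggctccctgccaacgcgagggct
Btg2: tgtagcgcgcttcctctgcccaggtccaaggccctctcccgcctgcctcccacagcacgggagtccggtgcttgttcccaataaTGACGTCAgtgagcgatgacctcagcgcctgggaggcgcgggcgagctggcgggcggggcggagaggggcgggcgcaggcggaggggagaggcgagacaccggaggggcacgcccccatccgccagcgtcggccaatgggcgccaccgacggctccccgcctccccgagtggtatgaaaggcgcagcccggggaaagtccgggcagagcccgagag
Dusp1: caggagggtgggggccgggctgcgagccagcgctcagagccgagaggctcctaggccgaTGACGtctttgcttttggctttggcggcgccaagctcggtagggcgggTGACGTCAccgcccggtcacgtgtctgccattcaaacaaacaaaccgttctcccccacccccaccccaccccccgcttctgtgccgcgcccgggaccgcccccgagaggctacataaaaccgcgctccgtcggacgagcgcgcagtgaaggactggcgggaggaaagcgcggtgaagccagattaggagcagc

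The full element was found in Btg2 and Dusp1, and the core in all 4. Of 32851 RefSeq windows of this length, 1.79% hold TGACGTCA and 20.8% hold TGACG on either strand, and every full element also counts as a core. Among the 25 immediate early genes with a window, the full element was in 2, the 2 just named, and the core in 17, of which 13 were among the other 21 genes. The CArG box of serum response factor was in 0 of the 4 and in 2 of the other 21 windows, and in 1.63% of all windows. These matches describe letters in the windows.

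Fos, the best known activity marker and a subunit of the AP-1 transcription factor, measured 4.36, 4.75 and 4.95 log2 CPM in control and 3.37, 4.29 and 4.60 in resilient mice. The groups overlapped, and the difference was −0.58 (−1.10 to −0.06). Btg2, an antiproliferative regulator of mRNA decay, measured 4.43, 4.91 and 5.37 log2 CPM in control and 3.99, 4.30 and 4.59 in resilient mice, also with overlap and a difference of −0.61 (−1.03 to −0.19). Atf3, a stress-induced transcription factor of the CREB family, measured −0.34, 0.26 and 0.80 log2 CPM in control and −1.45, −0.75 and 0.19 in resilient mice. Its difference was −1.05 (−1.80 to −0.30), and −0.62 with the bulb marker mean as a covariate. Dusp1, a phosphatase that turns off MAP kinases, measured 2.83, 2.99 and 3.38 log2 CPM in control and 2.45, 2.66 and 2.78 in resilient mice. All its resilient values lay below all control values, and the difference was −0.38 (−0.70 to −0.07).

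Gadd45b, a DNA damage and demethylation factor named here after its values were seen, was the other member without overlap (−0.24, with an interval from −0.51 to 0.03). Of all genes, 0.0792% lay below all controls in this way. Arc, a regulator of synaptic strength, differed by −0.37 (−0.89 to 0.15), Npas4, a neuronal activity-dependent transcription factor, by −0.48 (−1.11 to 0.14) and Nr4a1, an orphan nuclear receptor, by −0.45 (−0.91 to 0.02). Their intervals exclude, in order, changes over 1.85-, 2.16- and 1.88-fold. Of the 31 intervals, 26 lay within 2-fold and 18 within 1.5-fold.

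Small nucleolar RNAs had the largest median above 0 among the 46 gene lists. These short RNAs sit mostly in introns of host genes and are cut out during splicing. Many C/D box snoRNAs guide methylation of ribosomal RNA. The class carries a C box (consensus TGATGA in the DNA letters used here) near the 5′ end. A D box (CTGA) lies near the 3′ end. The sequences of 8 members are given to make the boxes visible, 3 from 1 host gene and the rest from different hosts, with both boxes in capitals, in GRCm38 and in the direction of transcription. They lie at chr2:130275506-130275573 (plus strand, Snord110), chr10:23785750-23785823 (minus, Snord100), chr11:62603450-62603521 (plus, Snord49a), chr11:62603079-62603150 (plus, Snord49b), chr11:62604515-62604586 (plus, Snord65), chr7:15938762-15938870 (minus, Snord23), chr10:128084143-128084216 (plus, Snord59a) and chr7:59904755-59904848 (minus, Snord116l12).
Snord110: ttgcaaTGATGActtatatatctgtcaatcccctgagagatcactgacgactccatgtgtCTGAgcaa
Snord100: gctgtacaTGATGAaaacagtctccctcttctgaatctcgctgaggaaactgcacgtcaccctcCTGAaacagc
Snord49a: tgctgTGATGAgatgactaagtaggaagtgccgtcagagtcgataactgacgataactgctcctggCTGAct
Snord49b: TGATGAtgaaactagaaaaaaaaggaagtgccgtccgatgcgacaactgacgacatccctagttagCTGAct
Snord65: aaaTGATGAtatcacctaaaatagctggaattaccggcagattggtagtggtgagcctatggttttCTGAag
Snord23: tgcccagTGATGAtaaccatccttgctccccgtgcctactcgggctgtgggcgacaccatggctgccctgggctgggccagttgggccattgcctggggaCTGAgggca
Snord59a: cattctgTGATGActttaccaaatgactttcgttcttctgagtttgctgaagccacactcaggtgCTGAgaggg
Snord116l12: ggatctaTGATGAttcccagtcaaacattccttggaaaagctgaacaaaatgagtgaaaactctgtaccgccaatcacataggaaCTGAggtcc

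Of the 187 snoRNAs measured, 143 had a log2 fold change above 0, the median was 0.24, 20 were higher at an unadjusted p under 0.05 (2.11% of all genes) and 1 was lower (1.75%). For 71 of them a C box letter string was found in the first 24 bases and a D box string in the last 16 bases. These 71, with a median length of 79 bases, had a median of 0.50, with 65 above 0, 16 higher and 0 lower. The 116 without both strings, with a median length of 131 bases, had a median of 0.16, with 78 above 0, 4 higher and 1 lower. The 71 are called C/D box snoRNAs in this text by this exact match alone. Some genes with Snord names, such as Snord35a and Snord34, therefore fall among the 116 without both strings. The 38 snoRNAs between positions 59344073 and 59923122 on chromosome 7, in the imprinted Snhg14 locus, had a median of 0.66, with 35 above 0 and 5 higher. Most of these 38 are also counted in the 71, and their 5 higher ones are among the 16. They share 1 host transcript, so the members of the 71 are not independent. Whether their reads are shared between similar copies was not tested. No snoRNA passed the adjusted test. The box strings were searched after the values were known, and the intervals of only 116 of the 187 lay within 2-fold.

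The mean over the 71 C/D box members was 1.5, 1.16, 1.47, 1.11, 2.15 and 2.07 log2 CPM in control mice 1 to 6. In resilient mice 1 to 6 it was 2.09, 2.26, 2.11, 2.05, 1.52 and 2.32 log2 CPM. Control mice 5 and 6 were as high as the resilient mice, and resilient mouse 5 lay close to control mice 1 and 3. Susceptible mice ran from 0.79 to 1.99 log2 CPM, and the median of the 71 for susceptible against control mice was −0.04. With 1 mouse left out at a time, the median for the 71 ran from 0.40 to 0.63, and that for all 187 from 0.13 (without resilient mouse 3) to 0.34 (without control mouse 5).

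The host genes lay close to 0. The 116 measured hosts of 182 snoRNAs had log2 fold changes between −0.24 and 0.14, with a median of −0.0042, and all 116 intervals lay within 2-fold and 103 within 25%. The 20 higher snoRNAs had 13 hosts, whose log2 fold changes ran from −0.12 to 0.02. Snord110 measured 1.83, 2.72 and 5.10 log2 CPM in control and 3.49, 4.86 and 5.12 in resilient mice, a difference of 1.46 (0.10 to 2.83) with overlap. Its host Nop56, a core protein of the C/D box particle itself, differed by 0.02 (−0.07 to 0.11). Snord49a, Snord49b and Snord65 were higher by 0.88, 1.0 and 0.93, and their shared noncoding host 2410006H16Rik differed by −0.08 (−0.29 to 0.14).

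Snord100 measured −3.01, −1.35 and 0.14 log2 CPM in control and −1.19, 0.00 and 0.43 in resilient mice, a difference of 1.09 (0.27 to 1.90). Its host Rps12, a protein of the small ribosomal subunit, differed by −0.10 (−0.38 to 0.17). Snord23 differed by 0.75 and its host Nop53, a ribosome assembly factor, by −0.11. For Snord59a the difference was 0.39, and for its host Atp5b, the beta subunit of ATP synthase, −0.04. The member of the imprinted cluster, Snord116l12, differed by 0.94 (0.07 to 1.82) and Snhg14, the long host transcript, by 0.01 (−0.09 to 0.11). The libraries were size-selected, and whether small RNAs were retained alike in all libraries was not tested. Other small RNAs had medians nearer 0, with 0.06 for 235 small nuclear RNAs, 0.0062 for 64 miRNA precursors, −0.0065 for 20 small Cajal body RNAs and −0.12 for 53 miscellaneous RNAs. The 13 mitochondrial transfer RNAs had a median of 0.37, with 11 above 0 and 2 higher at an unadjusted p under 0.05 (2.11% of all genes).

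**Figure D4:**
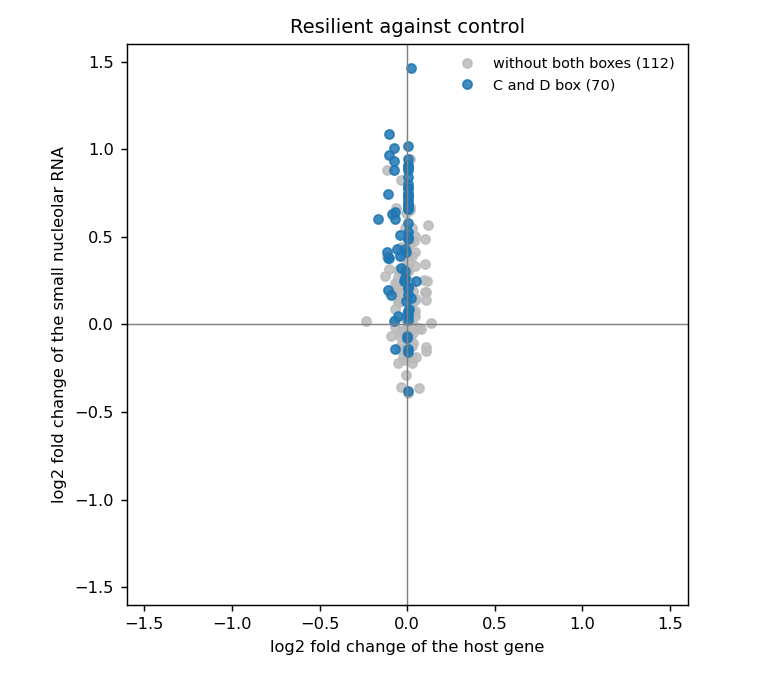
Log2 fold change (resilient against control) of each snoRNA (y axis) against that of its host gene (x axis), both axes on the same scale, 1 point per snoRNA with a measured host, with C and D box members in blue. The snoRNAs spread from −0.39 to 1.46, while the hosts stay between −0.24 and 0.14.

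Interferon-stimulated genes, which are induced by type I interferon in defense against viruses, had mostly lower means. Of 12 measured, 10 were below 0, the median was −0.18, and 2 were lower at an unadjusted p under 0.05 (1.75% of all genes). Ifit3, an interferon-induced binder of foreign RNA complexes, measured 3.02, 3.34 and 3.63 log2 CPM in control and 2.66, 2.97 and 3.21 in resilient mice, a difference of −0.42 (−0.67 to −0.17) with overlap. Ifit1, its partner, was lower by 0.30 (−0.58 to −0.02). All 12 genes of antigen presentation were below 0, with a median of −0.08, and 1 was lower at an unadjusted p under 0.05. That was H2-K1, the heavy chain of a class I molecule, at −0.26 (−0.51 to −0.02), while Psmb8, a subunit of the immunoproteasome, differed by −0.23 (−0.49 to 0.03). All 24 intervals of both lists lay within 2-fold. Chemokines and cytokines, 10 measured of 19, had a median of −0.02, and 7 of 10 lay within 25%.

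Oligodendrocyte gene lists had medians close to 0. Of 17 myelin proteins, 6 were above and 11 below 0, with a median of −0.03, none passed an unadjusted p under 0.05, and all intervals lay within 2-fold, 16 within 1.5-fold and 2 within 25%. With 1 mouse left out the median ran from −0.15 (without control mouse 6) to 0.05 (without resilient mouse 6). Ndrg1, a stress-responsive protein of myelinating cells, measured 5.63, 6.10 and 6.20 log2 CPM in control and 5.92, 6.14 and 6.19 in resilient mice. The groups overlapped almost fully, and the interval of the difference, 0.10 (−0.14 to 0.34), excludes a change over 1.26-fold. The widest bound in the list was a 1.53-fold change, for Opalin, a membrane protein of myelin paranodes. For susceptible mice the median of the same 17 genes was −0.70, and 11 of them were lower at an adjusted p under 0.05 against the same controls (1.28% of all genes in that direction). In resilient minus susceptible mice, 9 of the 17 were higher at an adjusted p under 0.05 (1.18% of all genes), with a median of 0.66, and Ndrg1 (0.47) was 1 of these. No gene passed in this contrast when only the 18 B6 mice were fitted or with the identity code as a covariate, so these calls were lost there. Susceptible mice mostly had the identity code C7, which 1 of the 6 controls carried. Code and phenotype therefore cannot be told apart in either comparison with susceptible mice.

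Among 10 enzymes and carriers of myelin lipids the median was −0.0079 and all lay within 1.5-fold. Ugt8a, which makes galactocerebroside, differed by 0.01 (−0.31 to 0.33). Sgms1, a sphingomyelin synthase, was higher by 0.12 (0.02 to 0.22) at an unadjusted p under 0.05. The 11 oligodendrocyte transcription factors had a median of −0.0087, with 10 within 1.5-fold and Sp7, which followed the bulb markers, outside 2-fold. The 11 precursor genes had a median of −0.0066 and all lay within 2-fold. Pdgfra, the growth factor receptor of these precursors, differed by 0.06 (−0.02 to 0.14).

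Of the 20 genes of cholesterol synthesis and transport, 18 intervals lay within 25% and all within 1.5-fold, with a median of 0.02, 1 higher and 1 lower at an unadjusted p under 0.05. Nsdhl was the higher one. Apoe, the lipid carrier secreted by astrocytes, measured 9.74, 9.80 and 9.94 log2 CPM in control and 9.63, 9.67 and 9.77 in resilient mice and differed by −0.13 (−0.25 to −0.02).

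Other glial and vascular markers were close between the groups. Of 13 astrocyte markers 11 were below 0, the median was −0.09, and all lay within 1.5-fold. Aldh1l1, a folate enzyme used as a pan-astrocyte marker, was lower by 0.10 (−0.19 to −0.01) and was the 1 member at an unadjusted p under 0.05, while Gja1, the gap junction protein connexin 43, differed by −0.10 (−0.21 to 0.00). All 15 microglial markers lay within 25%, with a median of −0.01. Tmem119, a microglial surface protein, differed by −0.04 (−0.19 to 0.11) and C1qa, a complement component, by −0.14 (−0.31 to 0.03), so a change over 1.24-fold was excluded for each of the 15.

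All 12 endothelial markers also lay within 25%, with a median of −0.04. Kdr, the VEGF receptor of vessels, was lower by 0.16 (−0.29 to −0.04) and was the 1 member at an unadjusted p under 0.05. Cldn5, a tight junction protein of the blood-brain barrier, differed by −0.08 (−0.29 to 0.13). The 7 mural markers lay within 1.5-fold, with Vtn at −0.21 (−0.42 to 0.00). Of 8 meningeal fibroblast markers 6 were below 0, with a median of −0.23, and Igf2, a growth factor of meninges and choroid plexus, was lower by 0.38 (−0.71 to −0.05). Col1a1, a fibrillar collagen, differed by 0.17 (−0.62 to 0.97). The list mean was 3.03, 3.30 and 3.58 log2 CPM in control and 2.81, 3.11 and 3.56 in resilient mice, and how much of it came from attached meninges was not tested. Choroid plexus (5 measured of 9), ependymal (4 of 5) and red blood cell (5) markers had medians of 0.11, 0.02 and −0.05 with wide intervals, which reached a 5.37-, 3.69- and 2.58-fold change.

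Neuronal markers had medians close to 0. All 8 pan-neuronal markers lay within 1.5-fold and 7 within 25%, with a median of −0.01, and Snap25 differed by 0.03 (−0.16 to 0.22). The 6 excitatory markers had a median of 0.06 and all lay within 1.5-fold but 2 within 25%, with Slc17a7 at 0.02 (−0.19 to 0.22). All 16 cortical layer markers measured lay within 1.5-fold and 8 within 25%, with a median of 0.02. Cux1, a transcription factor of upper layers, was the 1 layer marker at an unadjusted p under 0.05, at −0.21 (−0.39 to −0.04).

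Of 14 interneuron markers, 13 lay within 2-fold and the median was −0.06. Gad1, the enzyme that makes GABA, differed by −0.28 (−0.75 to 0.20), and by 0.11 with the bulb marker mean as a covariate. The 12 measured genes of perineuronal nets, the matrix around fast-spiking interneurons, had a median of −0.03, and Bcan, brevican, was lower by 0.12 (−0.22 to −0.01). The 13 striatal markers had a median of −0.06, with 10 within 2-fold. Ppp1r1b, the DARPP-32 protein of striatal projection neurons, differed by −0.04 (−0.57 to 0.50), Drd1, a dopamine receptor, by 0.15 (−0.47 to 0.77) and Penk, proenkephalin, by −0.28 (−0.94 to 0.38). The striatal list mean ran from 3.68 to 5.27 log2 CPM in control and from 3.75 to 5.3 in resilient mice, so the spread was within each group. The 5 thalamic markers all lay within 1.5-fold, with a median of −0.05.

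Genes of the stress hormone axis showed no member past the adjusted test. Of 19 genes of glucocorticoid signaling, targets of the hormone and its receptors, 11 were above 0, the median was 0.03, and 17 intervals lay within 1.5-fold. Fkbp5, a chaperone of the glucocorticoid receptor and a standard readout of hormone action, measured 2.78, 3.17 and 3.19 log2 CPM in control and 2.93, 3.11 and 3.49 in resilient mice. It differed by 0.04 (−0.17 to 0.26), which excludes a change over 1.20-fold, and by 0.38 between susceptible and control mice (limma adjusted p = 0.049). Hif3a, a hypoxia-inducible factor induced by glucocorticoids, was higher by 0.42 (0.02 to 0.81) and was the 1 member at an unadjusted p under 0.05. Crh, corticotropin-releasing hormone, differed by −0.12 (−0.40 to 0.15) and its receptor gene Crhr1 by −0.14 (−0.37 to 0.08), both among 9 stress peptide genes that lay within 2-fold.

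Glutamate and GABA receptor genes had median margins of 0.137 and 0.142, narrower than the 0.176 over all genes. Their list means in control mice were 6.95 and 7.44 log2 CPM. At 6 to 8 log2 CPM the median margin of all genes was narrower still, at 0.105. Of 22 glutamate receptor genes 19 lay within 25% and 21 within 1.5-fold, with a median of −0.02, and Gria1, a subunit of AMPA receptors, differed by 0.01 (−0.11 to 0.13). Of 14 GABA receptor genes 13 lay within 25% and 14 within 1.5-fold, with a median of 0.00014. None of these 36 genes had an unadjusted p under 0.05.

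All 12 serotonin receptor genes lay within 2-fold, with a median of 0.03. Htr1a, the inhibitory receptor of pyramidal cells, differed by −0.08 (−0.38 to 0.22) and Htr1b, a receptor of axon terminals, by 0.25 (−0.09 to 0.60). The 7 opioid genes lay within 2-fold, and the mu receptor gene Oprm1 differed by 0.07 (−0.20 to 0.34). Of 13 catecholamine genes 10 lay within 2-fold, and the widest bound, 9.0-fold, was that of Slc6a3. The 4 melanocortin genes had a median of 0.11. Of these, 1 was higher at an unadjusted p under 0.05 (2.11% of all genes) without overlap (0.158% of all genes). Among 7 neurotrophin genes, Bdnf, the main activity-dependent growth factor of cortex, differed by 0.10 (−0.23 to 0.42), which excludes a change over 1.34-fold.

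Of 21 circadian clock genes 20 lay within 1.5-fold, with a median of −0.0017. Per1, a period gene that also responds to activity and glucocorticoids, differed by −0.17 (−0.38 to 0.04), and Nfil3, a repressor of the clock output, was lower by 0.34 (−0.64 to −0.03) at an unadjusted p under 0.05. Of 17 heat shock genes 16 lay within 1.5-fold, with Hspa1a, the inducible HSP70, at 0.02 (−0.16 to 0.20) and Hspa8, the constitutive form, at −0.09 (−0.23 to 0.04). None of the 17 had an unadjusted p under 0.05.

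Genes of energy production and protein synthesis had medians close to 0, apart from those of the mitochondrial genome. Of 76 mitochondrial ribosomal protein genes 75 lay within 25% and the widest bound was 1.29-fold, and of 80 nuclear genes of the respiratory chain 71 lay within 25% and all within 2-fold. Their medians were 0.0029 and −0.0096. Atp5g2, a subunit c gene of ATP synthase, was higher by 0.36 (0.01 to 0.71), and Ndufs4, a subunit of complex I, was lower by 0.13 (−0.26 to −0.00), the 2 respiratory chain genes at an unadjusted p under 0.05. The 23 mitochondrially encoded genes had a median of 0.12 with 18 above 0. The 2 higher at an unadjusted p under 0.05 (2.11% of all genes), mt-Tt (0.72, 0.14 to 1.30) and mt-Tc (0.65, 0.02 to 1.28), were transfer RNAs.

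The 82 cytosolic ribosomal protein genes had a median of −0.02, with 4 higher and 4 lower at an unadjusted p under 0.05 (2.11% and 1.75% of all genes), all within 2-fold and 56 within 25%. Rpl10 was higher by 0.20 (0.04 to 0.35) and Rpl21 lower by 0.24 (−0.43 to −0.04), and both have many processed pseudogenes that can take their reads. The 39 replication-dependent histone genes had a median of 0.10 with 28 above 0 and none at an unadjusted p under 0.05. The widest bound was that of Hist1h4m, a histone H4 gene, at −1.26 (−2.82 to 0.30). Of 56 clustered protocadherin genes, which code for adhesion molecules that give single neurons their identity, 41 were below 0, with a median of −0.05, and all lay within 1.5-fold. Of 76 potassium channel genes 69 lay within 1.5-fold, and Kcng3, given earlier, was the 1 member at an unadjusted p under 0.05. Long intergenic and antisense RNAs (1349) had a median of −0.0035, with 32 (2.37%) higher and 26 (1.93%) lower at an unadjusted p under 0.05, close to the 2.11% and 1.75% of all genes. Pseudogenes (1280) had a median of 0.0010, with 58 (4.53%) higher and 37 (2.89%) lower.

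**Figure D5:**
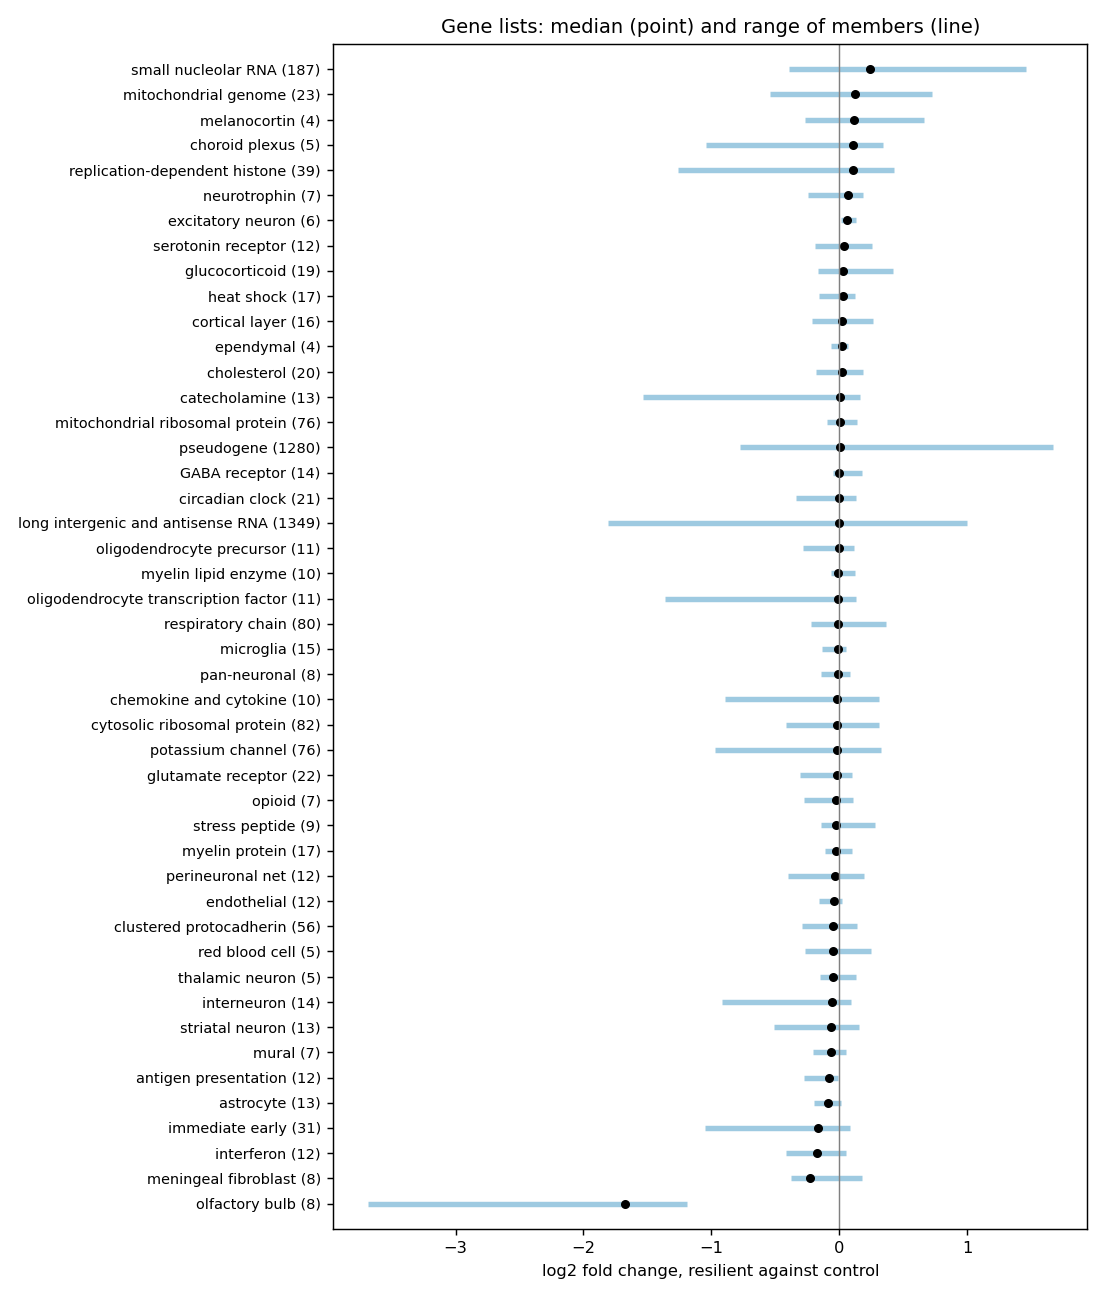
Median (point) and range (line) of the log2 fold changes (x axis, resilient against control) in each of 46 gene lists, with the number of measured members in parentheses. Most medians lie near 0, that of the olfactory bulb markers lies at −1.67 and that of the snoRNAs at 0.24.

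Resilient mice were also compared directly with susceptible mice. Resilient minus susceptible mice gave 383 genes at an adjusted p under 0.05 (2.02%), 223 higher and 160 lower in resilient mice. This count was 0 when only the 18 B6 mice were fitted and 0 with the identity code as a covariate. Susceptible mice carried the codes C7 (5 mice) and C5 (1), and resilient mice the codes C1, C2 and C5. Code and phenotype therefore cannot be told apart in this contrast. For resilient against control mice the count of genes at an adjusted p under 0.05 was 0 in each of these fits.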

How the data were processed

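RNA of 12 mPFC samples, each from 1 male B6 mouse, was sequenced after ribosomal RNA depletion. Per the paper's methods, single-end reads were cleared by the authors of adapters and PCR duplicates, aligned with STAR to GRCm38 and assigned to exons by HTSeq. The deposited table holds log2 CPM values of 18946 genes, made by the authors with a filter on low counts, voom, and ComBat on the library preparation sets. Which group terms ComBat kept is not given in the sources used here. Depth per library was not used, so precision came from the spread between mice.

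Symbols came from GENCODE M21 (99.56% of genes) and sequences from GRCm38 and from RefSeq promoter windows (GRCm38.p6). All 32 mPFC libraries, in 5 groups of strain and phenotype (6 mice in each B6 group, with 6 controls and 8 susceptible mice of the strain DBA/2Crl that entered only to estimate the spread), were fitted with limma 3.58.1 (R 4.3.3) and robust empirical Bayes moderation, with 27 residual degrees of freedom. Two-sided p values were adjusted (Benjamini-Hochberg) over 18946 genes. A 95% interval came from each gene's moderated SE, and the larger of its ends gave the fold change excluded. The code was tested on simulated data.

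Named genes were the 10 highest and 10 lowest protein-coding genes by −log10(p) times log2 fold change, the 3 genes of any kind with the smallest p in each direction, the 5 in each direction with a mean of at least 3 log2 CPM, and from each list its first gene and the 2 with the smallest p. Not every gene that this rule names is printed, and genes not reported here were passed over. The snoRNAs printed with their hosts, the promoters and Adgrl3 were chosen after their values were seen. The 46 lists and the members compared were chosen with earlier results of these data known. Lists are described by counts and medians, with no test of a list.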

Additional observations from a re-analysis of the deposited data

Results flagged for a closer look

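Each value of a mouse in the 2 groups was set against the others of its group of 6, for named genes and list means, and 22 of 306 groups held a mouse whose gap to the nearest other exceeded Dixon's 95% critical value as a share of the range. Chance alone flags about 1 in 20 groups.

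Control mouse 2 was set apart most often (7 of 22). It was the lowest control for S100a5 (−4.57 log2 CPM), Stoml3 (−2.44), Gdpd4 (−2.11), Nppa (−1.99), Tbx21 (−3.49), Calb2 (3.69) and the olfactory bulb list mean (−1.12). Control mouse 6 was lowest for Ccl28 (1.65 log2 CPM), Pdgfra (6.47), Nfil3 (2.93) and the neurotrophin list mean (5.74). Control mouse 5 was highest for 2900064F13Rik (2.08 log2 CPM) and Rps12 (2.04) and lowest for Fkbp5 (2.78) and the cortical layer list mean (5.45). Control mouse 3 was highest for Apoe (9.94 log2 CPM).

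Resilient mouse 5 was lowest for Gm6611 (1.79 log2 CPM) and the mean of the C/D box snoRNAs (1.52) and highest for the glutamate receptor list mean (7.00). Resilient mouse 3 was lowest for the microglia list mean (4.05 log2 CPM), resilient mouse 2 lowest for the stress peptide list mean (4.33), and resilient mouse 4 highest for the serotonin receptor list mean (3.14).

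Of the genes named, 8 differed between resilient and susceptible mice by the limma test of that difference (adjusted p under 0.05). In resilient minus susceptible mice the log2 difference was 0.22 for Gm11652, 0.34 for Gm19445, −0.40 for Gm6611, 0.47 for Ndrg1, 0.61 for Ugt8a, −0.60 for Igf2, −0.44 for Per1 and 3.30 for Hist1h4m. Identity code and phenotype cannot be told apart in this contrast.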

How the results depend on the processing

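No gene passed an adjusted p under 0.05 for resilient against control mice in any of the 23 planned fits or the 3 added after the data had been seen, and the smallest adjusted p was 0.0528, with array quality weights. In the fit of the 12 mice alone the smallest limma adjusted p was 0.0560. That fit had 996 genes at an unadjusted p under 0.05 (470 higher, 526 lower). At an unadjusted p under 0.05 the count was 1181 with array quality weights and 1176 with the means of olfactory bulb, striatal and myelin markers as covariates, and between 588 and 960 with 1 mouse left out. The median SE was 0.167 without the 5 control and 2 resilient mice with high bulb markers, where 83.3% of intervals lay within 2-fold, and between 0.0895 and 0.0910 with 1 mouse left out. The number of genes within 2-fold ran from 18233 to 18305 with 1 mouse left out. The count for resilient minus susceptible mice was 0 in the 18 B6 mice alone, 973 with array quality weights and 2 with library set as a covariate. It was 0 with identity code as a covariate and 654 with codes C1 and C2 alone in the 2 groups. It was 20 with the bulb covariate and 0 with all 3 marker covariates. It was 71 without the 5 control and 2 resilient mice with high bulb markers. Susceptible mice 2, 4, 5 and 6, with bulb marker means of 3.36, 4.28, 3.28 and 2.37 log2 CPM, stayed in that fit. The 71 genes thus do not come from mice with low bulb markers alone. With 1 mouse left out the count for resilient minus susceptible mice ran from 8 (without resilient mouse 2) to 593 (without resilient mouse 5). This count was 12 and 20 without resilient mice 3 and 4. It has no value in the fit of the 12 mice alone. The causes were not tested. Of the 106 genes named, values moved by more than the spread between mice in 59 instances, all under the 3 added fits, and none changed sign past a threshold. No paired analysis was possible because replicate numbers follow accession order and a mouse is either control or resilient. Depth was not taken into account, which limits what can be said of genes under 2 log2 CPM, whose intervals are the widest.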
